A study of Homo sapiens and Mus musculus with 69 samples.

Results

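The genes described here are 43 interferon-stimulated genes (ISGs), a list of antiviral effectors and of their regulators taken by gene symbol. The list was chosen with earlier results of these data known. All 43 had a row among the 20516 genes of the human expression table, and 35 had a row under the title-case mouse symbol among the 18501 genes of the mouse table. The 8 without such a mouse row were *HERC5*, *IFIT5*, *OAS1*, *OASL*, *GBP1*, *SAMD9*, *IFI6* and *TRIM22*.

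ISGs are switched on when an interferon binds its receptor, the receptor-bound kinases JAK1 and TYK2 become active, and a transcription factor complex that contains IRF9 binds a short GAAA-rich element in target promoters. IRF1 and related factors can bind the same element, and interferon itself can be induced after cytosolic DNA activates cGAS and STING. In small cell lung cancer (SCLC), neuroendocrine cells typically express these genes at low levels, and NOTCH signaling, which induces the transcriptional repressor REST, can move such cells toward a nonneuroendocrine state.

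RNA-seq was run on 4 human SCLC lines (H82, H524, H69 and COR-L88; 60 libraries in 20 groups) and on KP1, a mouse SCLC line with mutant *Rb1* and *Trp53* (9 libraries in 3 groups), with 3 libraries in every group. The design asks whether active NOTCH1, reached through a transgene or through an inhibitor of the histone demethylase LSD1, changes gene expression, and whether REST or STING is needed for it. H82, H524 and H69 were each measured as the parental line and as a lentiviral, antibiotic-selected line carrying an inducible vector for N1ICD, the active intracellular domain of NOTCH1, without doxycycline (no dox) and with doxycycline at 1 µg/mL (dox). H524 was also measured with an inducible *REST* vector, no dox and dox.

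The H82 N1ICD line was measured, no dox and dox, in its unedited form, after CRISPR editing labelled *REST* KO and after CRISPR editing labelled *STING* KO. COR-L88 cells received DMSO, the LSD1 inhibitor TAS1440 at 100 nM, or TAS1440 with the γ-secretase inhibitor (GSI) BMS-708163 at 2 µM for 28 days, and COR-L88 cells labelled *STING* KO received DMSO or TAS1440. KP1 cells received DMSO, TAS1440 at 100 nM, or TAS1440 with the GSI DBZ at 10 µM. A GSI blocks the cleavage that releases N1ICD. Overexpressing cells were the adherent cells collected after at least 28 days of dox, so each of these comparisons sets a selected, long-induced population against uninduced cells. The figure legends of the study place long-term H82 cells, with or without *REST* KO, and H524 cells at 56 days and H69 cells at more than 56 days. The labels tie no collection time to a dox library and do not say which edited clone was sequenced or whether libraries came from separate cultures, so *P* values measure only the spread between libraries, which may be technical.

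Values are log2(RPKM + 1) as deposited, written below simply as levels. A difference is the difference between group means on that scale, given ± SE with 3 libraries per group. It understates the change of low genes. A gene was called when the limma Benjamini-Hochberg adjusted *P* was below 0.05 and the difference was at least 1. In the human table the values of different genes do not share a per-length scale. The smallest level above 0 was 2.22 for *BST2* and 2.07 for *XAF1*, against 0.01 for *IFIT1*, and the RPKM of a library summed to between 1202460 and 2331976, against 127599 to 143996 in KP1. No levels or sizes of difference are therefore compared between human genes, and a *BST2* or *XAF1* level near 2 beside 0 is a difference of about the smallest step.

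The tables hold no counts, so absolute depth was unknown. Relative library size, read from the steps between low values, ranged from 0.699 to 1.529 in the human table and from 0.871 to 1.087 in KP1. *NOTCH1* stood at 4.26 to 10.74 in the N1ICD dox libraries and at 0.38 to 2.15 in the no-dox libraries of the same lines. *REST* stood at 6.87 to 10.72 in the H524 *REST* dox libraries and at 4.90 to 5.05 without dox. Editing need not lower RNA, and in H82 dox cells *STING1* stood at 1.27 to 2.04 in the line labelled *STING* KO and at 1.07 to 1.17 in the unedited line. Within the lines, cell state moved with induction. The summed level of 6 neuroendocrine markers was 34.6 to 35.6 without dox and 7.96 to 10.5 with dox in unedited H82 N1ICD libraries, and 35.7 to 38.0 and 5.29 to 5.68 in H69. The summed level of 5 fibroblast-associated genes (*COL1A1*, *COL1A2*, *DCN*, *LUM* and *PDGFRB*) was 1.55 to 4.99 without dox and 15.2 to 15.7 with dox in H82. In H69 it was 7.99 to 8.48 and 33.9 to 34.0. With dox in H82 most of it was *COL1A1*, *PDGFRB* and *LUM*, and *COL1A2* was listed at 0. The summed level of 4 leukocyte genes (*PTPRC*, *CD3E*, *CD14* and *NKG7*), most of it *CD14*, was 0.604 to 1.46 without dox and 0.998 to 2.34 with dox in unedited H82, 0 to 0.52 and 2.01 to 3.32 in H82 labelled *REST* KO, 0.993 to 1.89 and 2.11 to 2.96 in H82 labelled *STING* KO, 2.71 to 4.08 and 3.94 to 4.32 in H524 N1ICD cells, and 3.27 to 3.72 and 4.81 to 4.97 in H69. In COR-L88 it was 1.80 to 2.30 with DMSO and 0.831 to 1.72 with TAS1440. In these bulk libraries fewer cells of a type and less RNA per cell cannot be told apart, and the part of these markers in the ISG values was not tested.

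To show what the ISG promoters share, a window from 250 bases before to 50 bases after each listed start of a gene was searched for GAAA, any 2 bases and GAAA, the core of the interferon-stimulated response element, and for its reverse complement (TTTC, any 2 bases and TTTC; RefSeq, GRCh38.p14). Of the 43 genes 35 had an entry, and 26 of those 35 (74.3%) held the motif, against 1195 of all 27305 genes with an entry (4.38%). The 9 with an entry and no match were *ADAR*, *CMPK2*, *HERC6*, *IFI35*, *OAS1*, *SAMD9L*, *SP100*, *UBE2L6* and *XAF1*. The 8 stretches below belong to genes whose values are given in detail later and are written 5′ to 3′ on the strand of the gene. Capitals mark a match to the motif in each. The stretches of *ISG15*, *IFIT1*, *IFITM3* and *BST2* hold a further match that is not marked, which in *ISG15* and *BST2* shares bases with the marked match.
*ISG15* (chr1:1013365-1013424, plus strand): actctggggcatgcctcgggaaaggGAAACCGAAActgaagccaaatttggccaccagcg
*IFI6* (chr1:27672314-27672373, minus strand): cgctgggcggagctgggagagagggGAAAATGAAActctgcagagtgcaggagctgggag
*GBP1* (chr1:89065301-89065360, minus strand): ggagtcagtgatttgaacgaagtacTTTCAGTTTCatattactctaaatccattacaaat
*IFIT1* (chr10:89392482-89392541, plus strand): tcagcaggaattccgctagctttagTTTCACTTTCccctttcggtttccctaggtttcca
*IFITM3* (chr11:320861-320920, minus strand): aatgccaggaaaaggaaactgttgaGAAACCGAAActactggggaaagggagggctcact
*OAS3* (chr12:112938306-112938365, plus strand): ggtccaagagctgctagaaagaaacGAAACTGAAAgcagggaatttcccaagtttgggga
*LGALS3BP* (chr17:78979947-78980006, minus strand): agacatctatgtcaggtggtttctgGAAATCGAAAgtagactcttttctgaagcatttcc
*BST2* (chr19:17405726-17405785, minus strand): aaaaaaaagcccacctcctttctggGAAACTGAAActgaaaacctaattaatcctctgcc
The marked match of *ISG15* began 107 bases before the start of the gene and that of *IFITM3* 35 bases before it. In *GBP1* and *IFIT1* the marked match read in the other direction. A match is a description of the letters in the window and not evidence of binding in these cells.

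No ISG was listed at 0 in every library of a line, but many never reached a level of 1. These were 11 of 43 genes in H82, 8 in H524, 6 in H69, 11 in COR-L88 and 13 of 35 in KP1. *MX1*, a GTPase that blocks many RNA viruses, peaked at 0.04 in H82, 0.98 in H524 and 0.48 in COR-L88, whereas its levels in the H69 dox libraries were 1.51, 1.69 and 1.68. *OAS1*, which makes the 2′-5′ oligoadenylates that activate RNase L, peaked at 0.58 in H82 and 0.98 in COR-L88 and reached 1.98 to 2.02 in H69 dox libraries. *OASL*, *MX2* and *EPSTI1* stayed below 1 in H82, H69 and COR-L88. In the 4 human lines 31, 34, 36 and 31 ISGs (H82, H524, H69 and COR-L88, respectively) and in KP1 15 were tested, since a gene had to reach 1 in at least 3 libraries of its line.

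**Figure D1:**
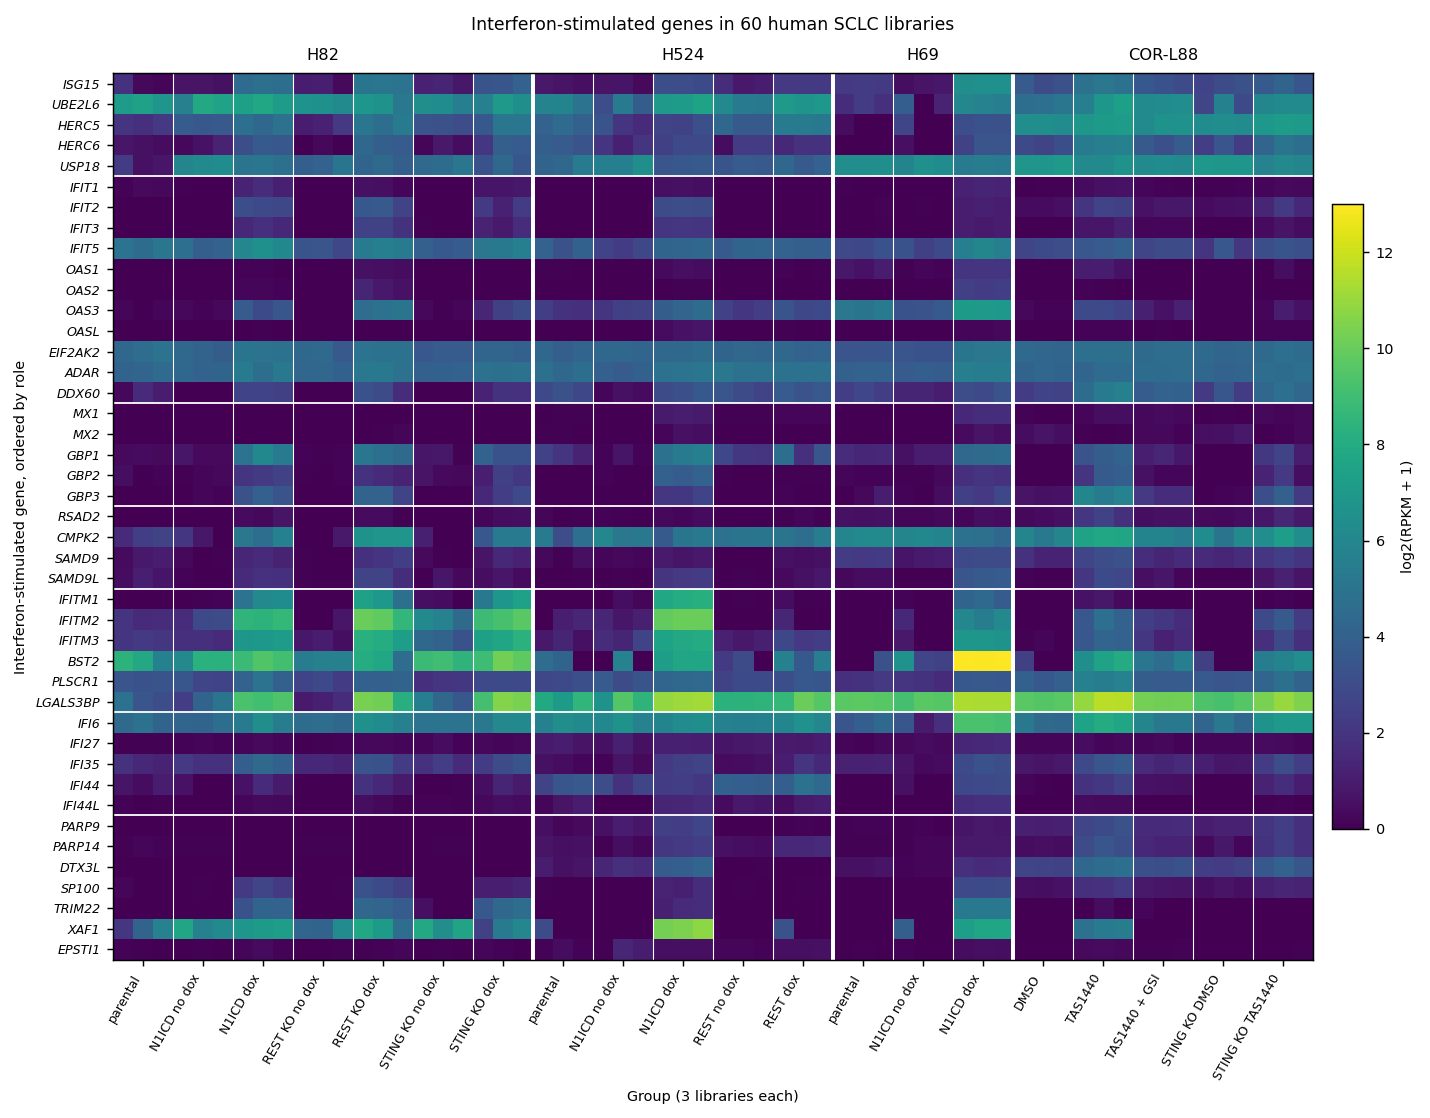
Heat map of log2(RPKM + 1) for the 43 ISGs (rows, ordered by role) in the 60 human libraries (columns, ordered by line and group). The color scale runs from 0 to 13, and colors compare libraries within a row and not genes; the dox and TAS1440 libraries are the brighter blocks of each line.

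In H82, N1ICD was accompanied by higher levels of most tested ISGs. Dox raised 24 of the 31 tested genes and lowered 1, whereas 14.7% of all 13903 tested genes were called higher and 12.4% lower, and the median difference was 2.07 for the ISGs and 0.00 for all genes. Of the 31, 15 passed the level filter only with the induced libraries of the line counted, so calls among them follow in part from the filter. Of the 16 that passed on the uninduced libraries alone, 10 rose and 1 fell. By role, 3 of 5 genes of ISG15 conjugation, 6 of 8 of RNA recognition, 3 of 3 GTPases, 3 of 3 of nucleotide metabolism and its neighbors, 5 of 6 membrane or secreted proteins, 2 of 3 IFI proteins and 2 of 3 nuclear-body genes rose.

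*ISG15*, the ubiquitin-like modifier, stood at 0.69, 0.69 and 0.58 in the 3 H82 no-dox libraries and at 4.54, 4.81 and 4.71 with dox. The groups did not overlap, and the difference was 4.03 ± 0.32 (limma adjusted *P* = 1.1e-08). *GBP1*, a GTPase that attacks intracellular pathogens, went from 0.77, 0.35 and 0.31 to 4.97, 6.07 and 5.42 (5.01 ± 0.27, limma adjusted *P* = 9.1e-11). The 3 IFITM proteins, which restrict viral entry at membranes, and *LGALS3BP*, a secreted glycoprotein, rose with them. *IFITM3* went from 1.82, 1.77 and 1.61 to 6.90, 6.95 and 7.20 (5.28 ± 0.28, limma adjusted *P* = 6.8e-11). *IFITM1*, at 0.00, 0.10 and 0.11 without dox, was at 4.96, 6.12 and 6.30 with it. *IFITM2* rose by 6.03 ± 0.43 and *LGALS3BP* by 5.43 ± 0.68, and in each of these genes every dox library lay above every no-dox library. *IFITM1*, *IFITM2* and *IFITM3* lie next to each other on chromosome 11 (GRCh37, 310041 to 315272, 303655 to 309397 and 319676 to 329475) and are similar in sequence, so the split of reads among them is uncertain.

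*IFIT1*, which binds viral RNA lacking host cap marks, rose by 1.30 ± 0.13 to 1.31, 1.64 and 1.13 (limma adjusted *P* = 1.9e-07). *BST2*, the tether of budding virions also called tetherin, stood at 6.14, 8.31 and 8.29 without dox and at 8.84, 9.50 and 9.04 with dox, and its difference of 1.55 ± 0.77 was not called (limma adjusted *P* = 0.10). *ADAR*, the RNA-editing enzyme, differed by 0.90, below the size set for a call. *USP18*, the protease that removes ISG15 from its targets, fell by 1.18 on the log2 scale (limma adjusted *P* = 0.015). Its no-dox levels of 5.93, 6.19 and 6.33 were themselves far above those of parental H82 cells (2.25, 0.60 and 0.79), and it is a gene with a near-identical copy in the genome, so its counts are uncertain. *IFI27*, *IFI44L*, *OAS1* and *MX1* never reached 1 in H82 and were not tested.

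**Figure D2:**
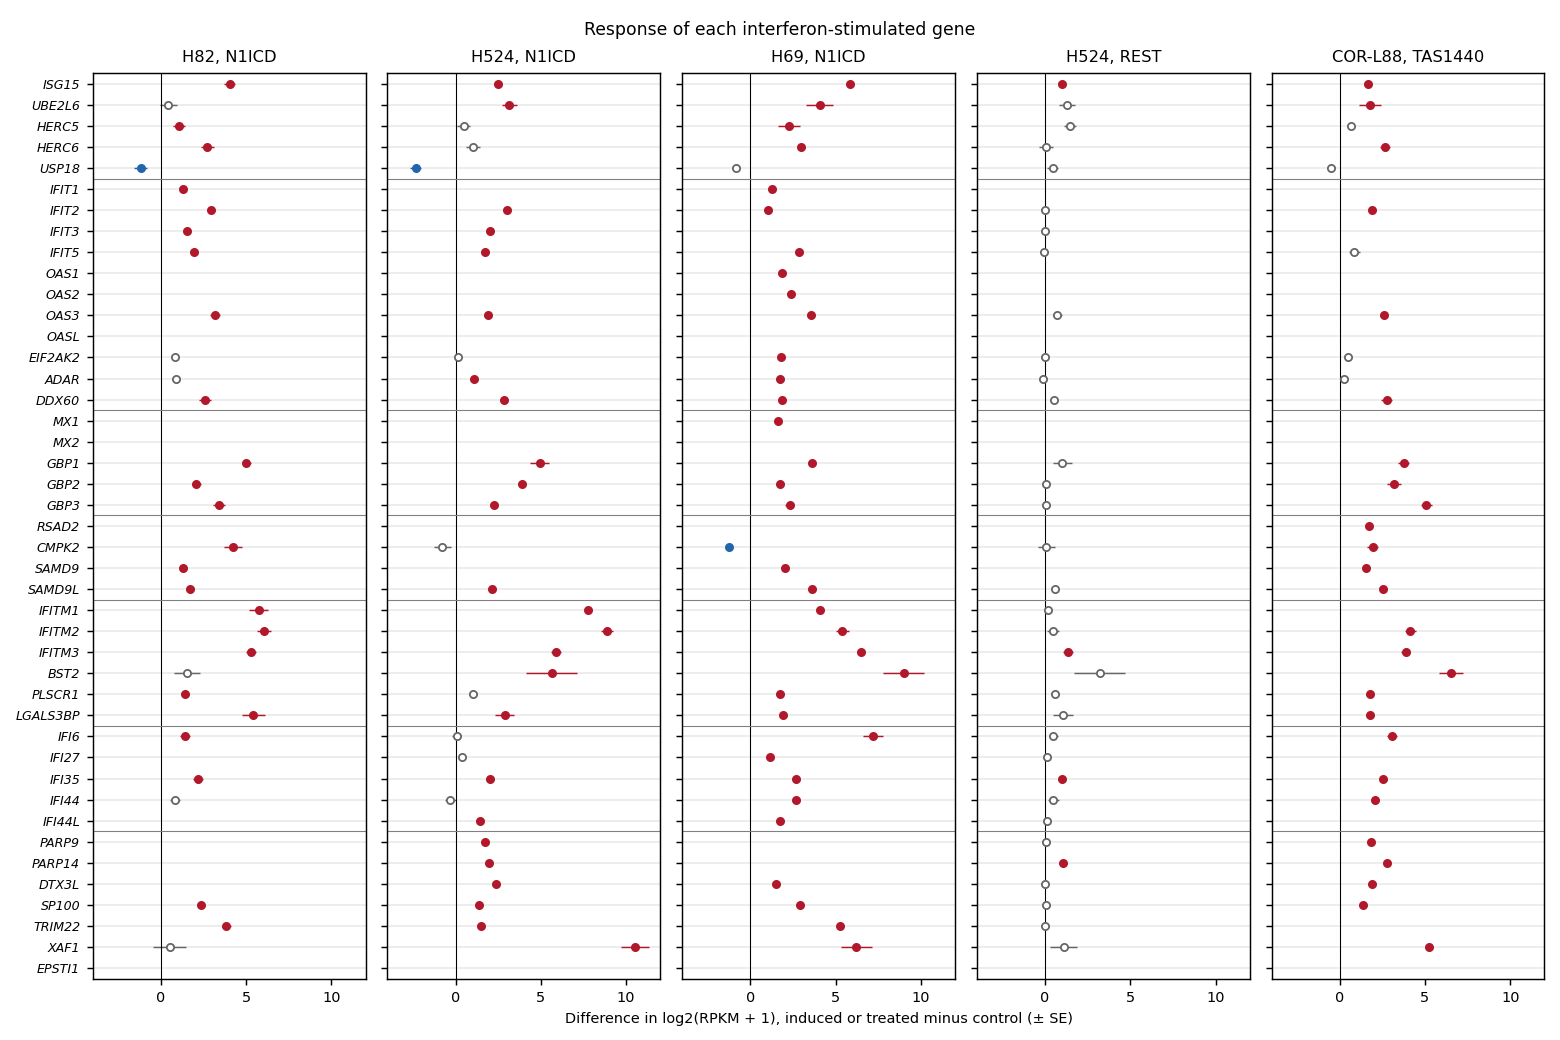
Difference on the log2(RPKM + 1) scale for each tested ISG (points, with SE bars, 3 libraries per group) for N1ICD in H82, H524 and H69, REST in H524 and TAS1440 in COR-L88. Filled red points were called higher, filled blue points lower and open points not called. Called higher were 24 of 31, 25 of 34, 34 of 36, 4 of 34 and 26 of 31 genes, respectively.

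In H524, N1ICD raised 25 of 34 tested ISGs and lowered 1, against 11.4% and 7.19% of all 13648 genes, and the medians were 1.98 and −0.02. Of the 19 that passed on uninduced libraries alone, 11 rose and 1 fell. *XAF1*, a proapoptotic antagonist of XIAP, was listed at 0 in all 3 no-dox libraries and at 10.27, 10.41 and 10.81 with dox (10.50 ± 0.82, limma adjusted *P* = 2.8e-07). *IFITM1* stood at 0.00, 0.46 and 0.24 and then at 7.79, 8.04 and 8.17 (7.77 ± 0.15, limma adjusted *P* = 2.5e-13). *IFITM2* rose by 8.88 ± 0.37 and *IFITM3* by 5.91 ± 0.30. *ISG15* went from 0.70, 0.72 and 0.33 to 3.14, 3.07 and 2.94 (2.47 ± 0.20, limma adjusted *P* = 5.3e-07), and for these 5 genes each library with dox lay above all of those without.

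*BST2* in H524 was listed at 0 in 2 of the 3 no-dox libraries and at 5.78 in the remaining one, and stood at 7.30 to 7.72 with dox (5.62 ± 1.47, limma adjusted *P* = 0.0096). *GBP1* rose by 4.94 ± 0.56, *LGALS3BP* by 2.88 ± 0.57, *IFI44L* by 1.41 ± 0.21 and *ADAR* by 1.06 ± 0.15. Among the IFI genes the differences were 0.05 for *IFI6*, a mitochondrial and endoplasmic reticulum protein already at 5.75 to 6.66 without dox, and 0.35 for *IFI27*, and neither was called. *USP18* again fell, by 2.34 on the log2 scale (limma adjusted *P* = 5.6e-05), from 5.62, 5.61 and 6.49 to 3.43, 3.57 and 3.69. *IFIT1*, *OAS1* and *MX1* were not tested in H524, where *MX1* stood at 0.05 or below without dox and at 0.92, 0.98 and 0.92 with it.

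REST overexpression in H524 raised 4 of 34 tested ISGs and lowered none, against 1.28% and 0.586% of all genes, and the medians were 0.46 and 0.01. Of the 19 that passed on uninduced libraries alone, 1 rose. The 4 were *IFITM3* (1.35 ± 0.30, limma adjusted *P* = 0.031), *PARP14*, an ADP-ribosyltransferase (1.05 ± 0.13, limma adjusted *P* = 0.0012), *ISG15* (1.02 ± 0.20, limma adjusted *P* = 0.017) and *IFI35*, an interferon-induced protein with a leucine zipper (1.01 ± 0.23, limma adjusted *P* = 0.037). *ISG15* stood at 1.72, 0.88 and 0.97 without dox and at 2.16, 2.23 and 2.23 with dox, and *PARP14* at 0.61, 0.46 and 0.37 and then at 1.50, 1.47 and 1.61. The count was not stable, at 0 without the third no-dox library, 1 without the second no-dox or without the second or the third dox library, 2 without the first no-dox library, and 0 after quantile normalization. *XAF1* was listed at 0 in all 3 *REST* no-dox libraries and in 2 of 3 dox libraries, with 3.25 in the first.

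The responses to N1ICD and REST in H524 were compared through the interaction, N1ICD dox minus no dox less REST dox minus no dox. It was called positive for 21 and negative for 1 of the 34 ISGs, against 9.88% and 5.68% of all genes. Of the 34, 15 passed the level filter only with induced libraries counted, so calls among them follow in part from the filter. The interaction was 9.41 ± 1.15 for *XAF1* (limma adjusted *P* = 5.5e-05), 8.41 ± 0.53 for *IFITM2* and 7.61 ± 0.22 for *IFITM1*. Between the dox groups themselves 16 ISGs were higher with N1ICD and 2 lower (12.3% and 11.5% of all genes), the 2 being *HERC5*, the ligase that attaches ISG15 (−2.57), and *IFI44* (−2.18). *HERC5* stood at 2.68, 2.50 and 3.15 with N1ICD and at 5.42, 5.39 and 5.24 with REST.

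H69 had the most called ISGs. N1ICD raised 34 of 36 tested genes and lowered 1, but 21.4% and 20.4% of all 13580 genes were called in the same fit, with medians of 2.34 and 0.08. Of the 16 ISGs that passed on uninduced libraries alone, 14 rose and 1 fell. *ISG15* went from 0.48, 0.67 and 0.86 to 6.44, 6.51 and 6.50 (5.81 ± 0.10, limma adjusted *P* = 2.8e-10). *IFI6* went from 3.47, 0.92 and 1.73 to 9.26, 9.25 and 9.19 (7.19 ± 0.56, limma adjusted *P* = 3.3e-06). *BST2* stood at 6.64, 2.72 and 2.55 without dox and at 12.99, 12.94 and 12.97 with it (8.99 ± 1.19, limma adjusted *P* = 0.0001). The first no-dox library was the highest of its group for *BST2*, *IFI6* and *XAF1*, yet every dox library of these 3 genes lay above it. Without it the differences were 10.33 for *BST2*, 7.91 for *IFI6* and 7.53 for *XAF1*.

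*IFITM3* in H69 was at 0.88, 0.00 and 0.00 and then at 6.86, 6.87 and 6.69 (6.51 ± 0.21), and *XAF1* at 3.92, 0.00 and 0.00 and then at 7.21, 7.71 and 7.67 (6.22 ± 0.91). *MX1*, listed at 0 without dox, rose by 1.63 ± 0.07, *OAS1* by 1.85 ± 0.10, *IFI44L* by 1.75 ± 0.06, *IFI27* by 1.17 ± 0.08 and *IFIT1* by 1.24 ± 0.06. The differences were 3.61 for *GBP1*, 1.92 for *LGALS3BP* and 1.72 for *ADAR*, all called. *CMPK2*, a nucleotide kinase of mitochondria, fell by 1.25 on the log2 scale, from 5.93, 6.07 and 5.87 to 4.90, 4.81 and 4.42 (limma adjusted *P* = 2.9e-05). *CMPK2* and *RSAD2* share 1079 bases on opposite strands of chromosome 2 (GRCh37), and whether the counting used strand is not given in the sources used here, so the reads of both genes are uncertain.

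The N1ICD responses differed between lines in named genes. In a fit of all 60 human libraries, each difference between responses covers 40 ISGs. H69 exceeded H82 in 15 and fell short in 6 (21.9% and 21.2% of all genes), H69 exceeded H524 in 15 and fell short in 9 (17.8% and 19%), and H82 exceeded H524 in 10 and fell short in 10 (9.59% and 10.1%). *IFI6* rose by 7.19 in H69, with a difference of 1.42 in H82 and 0.05 in H524. *CMPK2* rose by 4.24 in H82, where it went from 2.03, 0.83 and 0.00 to 5.14, 4.71 and 5.73, and its response exceeded that in H524 by 5.02 ± 0.66 (limma adjusted *P* = 4.9e-08). *XAF1* rose in H524 and H69, and in H82 its difference was 0.51 (limma adjusted *P* = 0.69).

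In H82 cells labelled *REST* KO, N1ICD raised 24 of 31 tested ISGs and lowered none (16.2% and 13.7% of all genes; medians of 2.34 and −0.01). Of the 16 that passed on uninduced libraries alone, 10 rose. *ISG15* stood at 0.99, 1.11 and 0.31 without dox and at 5.06, 5.10 and 4.94 with dox, a range just above that of the unedited dox libraries. *IFITM2*, at 0.00, 0.00 and 0.80 without dox, was at 10.03, 9.81 and 8.62 with dox (9.22 ± 0.43, limma adjusted *P* = 6.6e-12). *LGALS3BP* rose by 8.31 ± 0.68, *IFITM3* by 7.08 ± 0.28 and *CMPK2* by 6.45 ± 0.52. *NOTCH1* itself was higher in these dox libraries, 8.75 to 10.74, than in the unedited dox libraries, 4.26 to 5.56, and the neuroendocrine marker sum was 19.0 to 20.9 against 7.96 to 10.5. The part of either difference in the ISG values was not tested.

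The response in the line labelled *REST* KO exceeded that in the unedited line for 6 ISGs and fell short for none, against 7.46% and 5.46% of all genes. The interaction was 3.19 ± 0.61 for *IFITM2* (limma adjusted *P* = 0.0012), 2.89 ± 0.97 for *LGALS3BP* (limma adjusted *P* = 0.049) and 2.55 ± 0.49 for *HERC5* (limma adjusted *P* = 0.0012), with *CMPK2*, *IFITM3* and *OAS3* also called. The calls of *LGALS3BP* and *CMPK2* were lost in 12 and 11 of 17 alternatives. The lines also differed without dox, where 5 ISGs were lower in the labelled *REST* KO line and none higher (2.85% and 3.39% of all genes). They were *LGALS3BP* (−2.59), *IFITM2* (−2.22), *HERC5* (−2.18), *USP18* (−1.80) and *IFIT5* (−1.07). *HERC5* stood at 1.01, 1.20 and 2.18 there and at 3.77, 3.55 and 3.61 in unedited no-dox cells. With dox the 2 lines differed in 4 ISGs, 2 each way (9.44% higher and 8.21% lower among all genes), namely *CMPK2* (1.55 ± 0.52), *OAS3* (1.47 ± 0.28), *IFI35* (−1.18 ± 0.29) and *BST2* (−2.28 ± 0.77). *BST2* read 8.07, 7.81 and 4.65 in the labelled *REST* KO dox libraries, and without the third of these its difference was −1.18 (limma adjusted *P* = 0.18), *IFI35* and *CMPK2* were not called either, and the count was 4 higher and 0 lower. Without the second unedited dox library the count was 2.

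**Figure D3:**
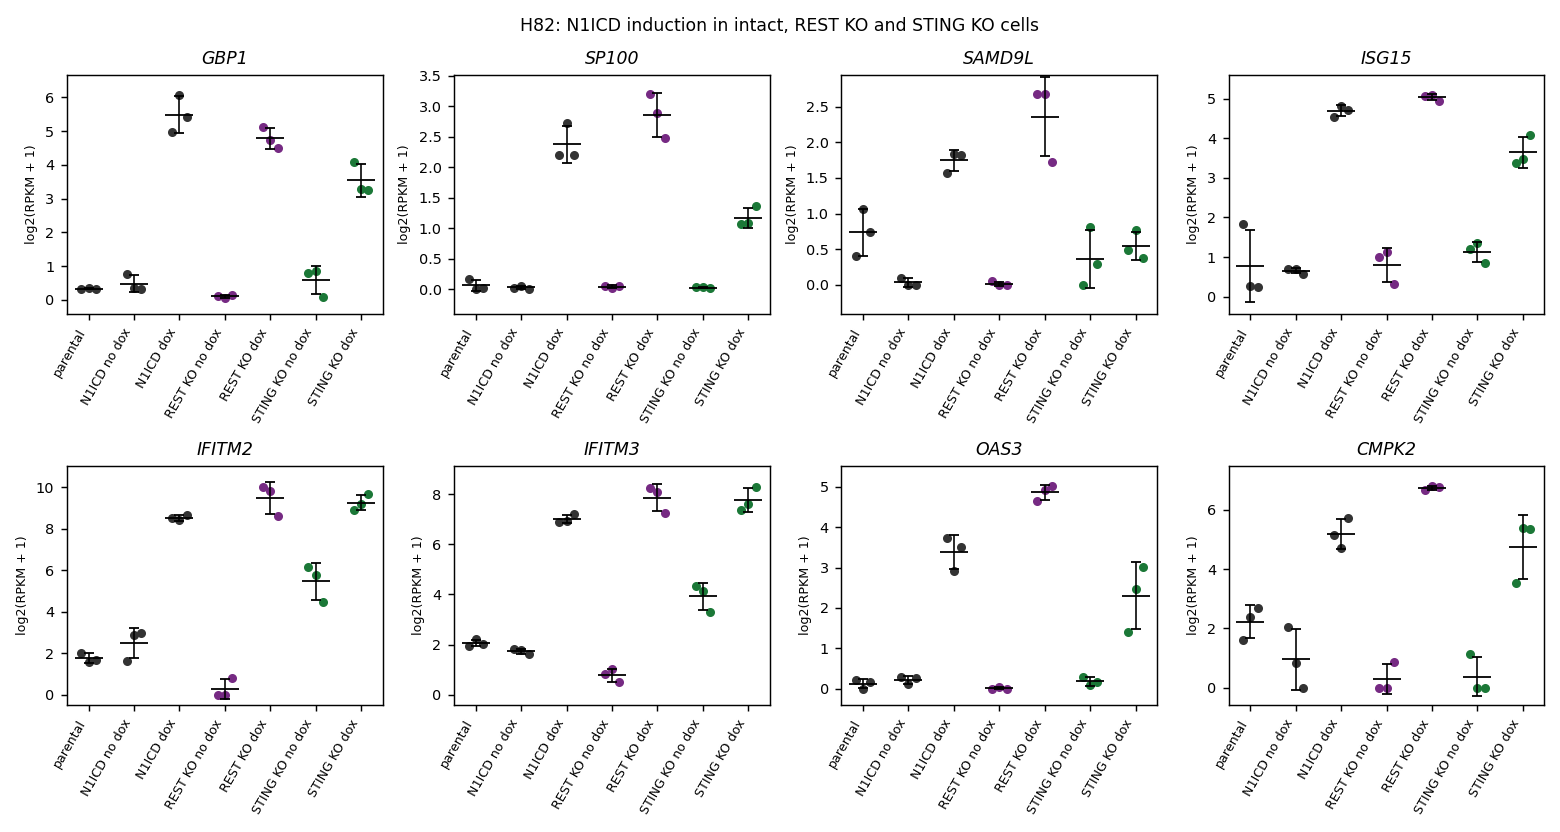
Levels (log2(RPKM + 1)) of 8 ISGs in the 7 H82 groups, with 1 point per library and the mean ± SD of 3 libraries. Purple marks cells labelled *REST* KO and green cells labelled *STING* KO. *GBP1*, *SP100* and *SAMD9L* dox libraries labelled *STING* KO lie below the unedited dox libraries.

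In H82 cells labelled *STING* KO, N1ICD raised 18 and lowered 1 of 31 tested ISGs (12.2% and 8.07% of all genes; medians of 1.39 and 0.01). Of the 16 that passed on uninduced libraries alone, 7 rose and 1 fell. *GBP1* went from 0.79, 0.85 and 0.10 to 4.10, 3.27 and 3.26, below each of the unedited dox libraries. *SAMD9L*, an inhibitor of translation, was at 0.00, 0.81 and 0.29 and then at 0.49, 0.77 and 0.38, and was not called. *IFITM1* rose by 6.21 ± 0.55, *LGALS3BP* by 5.56 ± 0.68, *CMPK2* by 4.37 ± 0.52 and *TRIM22*, an antiviral ubiquitin ligase, by 4.03 ± 0.26. *NOTCH1* stood at 5.97 to 7.48 in these dox libraries, and the neuroendocrine marker sum was 24.7 to 29.0 without dox and 5.61 to 12.9 with dox, and their part was not tested. *XAF1* fell by 2.65 on the log2 scale (limma adjusted *P* = 0.04), about its smallest step, and this call was lost in 5 of 11 alternatives.

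Compared directly with dox, 10 ISGs were lower and none higher in the line labelled *STING* KO (8.75% and 7.72% of all genes; medians of −0.60 and −0.10). They included *GBP1* (−1.94 ± 0.27, limma adjusted *P* = 4.4e-05), *PLSCR1*, a phospholipid scramblase (−1.45 ± 0.24), *GBP3* (−1.27 ± 0.34) and *ISG15*, which stood at 3.38, 3.46 and 4.09 (−1.05, limma adjusted *P* = 0.016). Without the first labelled *STING* KO dox library 5 were called. Without dox, *IFITM2* (2.98) and *IFITM3* (2.19) were higher and *USP18* (−1.45) lower in this line (6.64% and 7.72% of all genes). The interaction was negative for 6 and positive for none (3.21% and 3.91% of all genes). It was −2.23 ± 0.61 for *IFITM2* (limma adjusted *P* = 0.027), −2.05 ± 0.39 for *GBP1* (limma adjusted *P* = 0.0026) and −1.53 ± 0.34 for *SAMD9L* (limma adjusted *P* = 0.0076), with *ISG15*, *IFITM3* and *SP100* also called. The interaction calls of *ISG15*, *IFITM3* and *IFITM2* were lost in 12, 10 and 8 of 17 alternatives. *IFITM2* stood at 6.16, 5.76 and 4.47 in uninduced labelled *STING* KO cells, above the unedited no-dox libraries (1.63, 2.88 and 2.95), and at 8.93, 9.20 and 9.67 with dox, also above the unedited dox libraries, so its smaller response began from a higher level. The interaction count was 3 without the third unedited dox library, without the first or second labelled *STING* KO no-dox library, or without the second labelled *STING* KO dox library.

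In COR-L88, the LSD1 inhibitor raised 26 of 31 tested ISGs and lowered none (15.3% and 7.46% of all 13134 genes; medians of 1.94 and 0.01). Of the 16 that passed on the DMSO libraries alone, 11 rose. All tested GTPases (3), nucleotide-metabolism genes (4), membrane or secreted proteins (5), IFI proteins (3) and genes of the PARP and nuclear-body group (5) rose, as did 3 of 5 ISG15-conjugation genes and 3 of 6 RNA-recognition genes. *XAF1*, listed at 0 in the 3 DMSO libraries, stood at 4.83, 5.37 and 5.44 with TAS1440 (5.21 ± 0.13, limma adjusted *P* = 1.6e-11). *GBP3* went from 0.71, 0.56 and 0.65 to 5.98, 5.37 and 5.78 (5.07 ± 0.31, limma adjusted *P* = 3.1e-08). *BST2* went from 2.45, 0.00 and 0.00 to 6.47, 7.52 and 8.00 (6.51 ± 0.71, limma adjusted *P* = 4.5e-06). No library of these genes overlapped between the groups.

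*IFITM2*, listed at 0 in DMSO, rose by 4.12 ± 0.32 in COR-L88, *IFITM3* by 3.86 ± 0.28, *GBP1* by 3.75 ± 0.31, *LGALS3BP* by 1.78 ± 0.19 and *ISG15* by 1.65 ± 0.24. *ISG15* was already at 3.74, 2.96 and 3.23 in DMSO and reached 4.89, 5.15 and 4.83. *PARP9* and its partner ligase *DTX3L* rose by 1.83 ± 0.15 and 1.92 ± 0.14. These genes share 240 bases on opposite strands of chromosome 3, so without strand in the counting the reads there are uncertain. *ADAR* stood at 4.20, 4.27 and 4.20 and at 4.26, 4.56 and 4.56 (0.23, limma adjusted *P* = 0.062). *OAS1*, *IFIT1*, *MX1*, *IFI27* and *IFI44L* did not reach 1 in this line, with *OAS1* at 0 in DMSO and at 0.97, 0.98 and 0.63 with TAS1440. The neuroendocrine marker sum was 36.0 to 36.7 with DMSO and 14.0 to 17.2 with TAS1440, and its part in these values was not tested.

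TAS1440 alone exceeded TAS1440 with GSI in 25 of 31 ISGs and fell short in none (10.4% and 4.32% of all genes). The medians were 1.70 for the ISGs and 0.04 for all genes. Of the 31, 15 passed the level filter only with treated libraries counted, so calls among them follow in part from the filter. *XAF1* was listed at 0 in all 3 GSI libraries, and *ISG15* stood at 3.57, 3.26 and 2.95, within or near its DMSO range. *GBP3* was higher without GSI by 3.88 and *GBP2* by 2.84 (limma adjusted *P* = 1.8e-06 and 0.00017). Against DMSO, TAS1440 with GSI still raised 6 ISGs and lowered none (5.62% and 3.4% of all genes). The limma adjusted *P* was below 0.05 for 14 of 31, the difference was positive for 26 of 31, and the medians were 0.48 for the ISGs and −0.01 for all genes. The 6 were *BST2* (4.31 ± 0.71), *IFITM2* (2.05), *DDX60*, an RNA helicase (1.49), *IFITM3* (1.49), *GBP3* (1.19) and *GBP1* (1.10), while the difference of *ISG15* was −0.05 (limma adjusted *P* = 0.91). *BST2* stood at 5.13, 4.66 and 5.60 with GSI, between its DMSO and TAS1440 levels. *NOTCH1* RNA stood at 6.71 to 6.75 in the GSI libraries, above the 1.99 to 2.79 of TAS1440 alone.

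**Figure D4:**
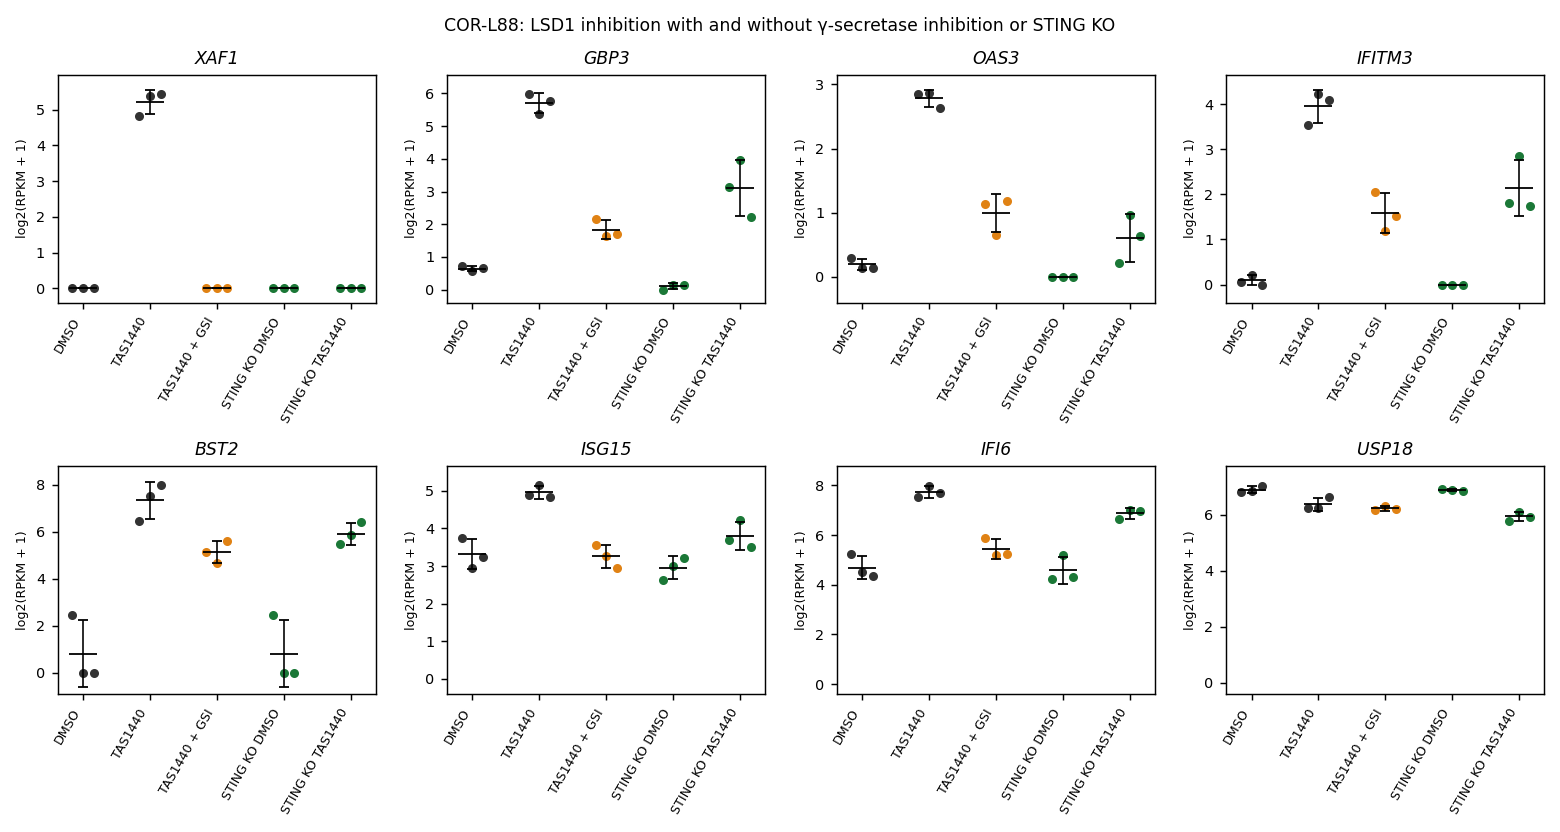
Levels (log2(RPKM + 1)) of 8 ISGs in the 5 COR-L88 groups, with 1 point per library and the mean ± SD of 3 libraries. Orange marks TAS1440 with GSI and green cells labelled *STING* KO. *XAF1* is at 0 in every group except TAS1440 alone in unedited cells, where it is 4.83 to 5.44.

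In COR-L88 cells labelled *STING* KO, TAS1440 raised 16 of 31 ISGs and lowered none (10.2% and 5.79% of all genes; medians of 1.22 and −0.02). Of the 16 that passed on the uninduced libraries alone, 6 rose. *BST2* rose by 5.09 ± 0.71, *GBP3* by 3.01, *IFITM2* by 2.95 and *UBE2L6*, the conjugating enzyme for ISG15, by 2.35, while none of the 4 genes of the nucleotide-metabolism group was called. *XAF1* was listed at 0 in all 6 libraries labelled *STING* KO. *ISG15* went from 2.62, 3.00 and 3.23 to 3.68, 4.21 and 3.50, a difference of 0.85 that was below the size set for a call.

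Set against unedited TAS1440 cells, 12 ISGs were lower and none higher in those labelled *STING* KO (5.06% and 1.48% of all genes; medians of −0.90 and −0.07). They included *XAF1* (−5.21 ± 0.13, limma adjusted *P* = 2.4e-11), *GBP3* (−2.60 ± 0.31, limma adjusted *P* = 0.00011) and *OAS3*, the long oligoadenylate synthetase, which stood at 2.85, 2.87 and 2.63 in unedited cells and at 0.22, 0.97 and 0.64 in edited ones (−2.17 ± 0.18, limma adjusted *P* = 5.9e-06). With DMSO no ISG was called between the 2 lines by limma, none had an unadjusted *P* below 0.05, and 1.47% of all genes were called. The interaction was negative for 8 ISGs and positive for none (3.31% and 0.921% of all genes), at −5.21 ± 0.19 for *XAF1* (limma adjusted *P* = 4.6e-09), −2.06 ± 0.45 for *GBP3* and −1.98 ± 0.25 for *OAS3*, with *GBP1*, *IFITM3*, *SAMD9L*, *PARP14* and *RSAD2* also called. The second labelled *STING* KO TAS1440 library was the highest of its group for most ISGs. Without it 18 ISGs were lower than in unedited TAS1440 cells and the interaction count was 15, and without the first library that count was 5. With a pseudocount of 0.1 it was 2. *STING1* stood at 2.03 to 2.54 in unedited and at 0.96 to 1.16 in edited TAS1440 cells. *NOTCH1* stood at 1.99, 2.79 and 2.26 in unedited and at 4.58, 2.82 and 4.93 in edited TAS1440 cells. The part of *NOTCH1* in the ISG values was not tested. The neuroendocrine marker sum stood at 20.1 to 22.1 in the edited TAS1440 cells, above the 14.0 to 17.2 of unedited ones, and its part was not tested.

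In mouse KP1 cells, whose table was normalized separately, TAS1440 raised 9 of 15 tested ISGs and lowered 1 (9.09% and 9.7% of all 8260 genes; medians of 1.09 and 0.02). Of the 6 that passed on the DMSO libraries alone, 3 rose and 1 fell. *Ifitm3* went from 2.24, 2.34 and 2.16 to 8.21, 8.11 and 7.92 (5.84 ± 0.18, limma adjusted *P* = 2.1e-07). *Isg15* went from 0.12, 0.00 and 0.00 to 2.84, 4.84 and 2.87 (3.48 ± 0.46, limma adjusted *P* = 0.00031), and *Bst2* from 0.41, 0.42 and 0.31 to 2.98, 5.10 and 2.78 (3.23 ± 0.52, limma adjusted *P* = 0.001). *Plscr1* rose by 1.67 ± 0.24, and *Cmpk2* fell by 1.26 on the log2 scale (limma adjusted *P* = 0.0017). *Ifi27* rose by 1.09 (limma adjusted *P* = 0.048), a call lost in 9 of 11 alternatives. The differences of *Adar* (−0.17) and *Lgals3bp* (−0.01) were not called, and *Ifi44l* and *Mx1* did not exceed 0.04. *Ifit1*, which was not tested, stood at 0.07, 0.14 and 0.05 with DMSO and at 1.77, 2.56 and 0.52 with TAS1440.

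The second TAS1440 library of KP1 stood apart. It was the highest of the 3 for 30 of 35 ISGs, among them *Isg15*, *Bst2* and *Plscr1*, and replicate correlations in that group were 0.9022 to 0.9436. The neuroendocrine marker sum in the first, the second and the third TAS1440 library was 0.645, 5.87 and 14.2, against 25.2 to 27.2 with DMSO. The sum of fibroblast-associated genes in the same TAS1440 libraries was 9.71, 4.42 and 15.2, against 0.086 to 0.184 with DMSO. In the second TAS1440 library most of that sum was *Pdgfrb* (3.94). The sum of 3 leukocyte genes (*Ptprc*, *Cd14* and *Nkg7*) was 1.29 to 1.56 with TAS1440 and 0 in DMSO. Most of it was *Cd14*, at 1.22, 1.41 and 1.22 with TAS1440. In those libraries *Ptprc* was listed at 0 and *Nkg7* stood at 0.08 to 0.20. The part of these markers was not tested. Without the second TAS1440 library, TAS1440 raised 7 ISGs and lowered 1, with differences of 2.82 for *Isg15*, 2.49 for *Bst2* and 1.36 for *Plscr1*. With the GSI DBZ *Isg15* was at 0.42, 0.06 and 0.52. TAS1440 alone exceeded TAS1440 with GSI in 8 genes and fell short in 1 (8.5% and 8% of all genes). Of the 15 tested genes 9 passed the level filter only with treated libraries counted, so calls among them follow in part from the filter. TAS1440 with GSI differed from DMSO in 1 ISG, *Ifitm3* (0.46% of all genes higher and 0.751% lower), which fell by 1.80 on the log2 scale to 0.14, 0.56 and 0.64 (limma adjusted *P* = 0.0011). Of the 15 genes 4 had an unadjusted *P* below 0.05, and the differences ran from −1.80 to 1.33. *Bst2* stood at 1.51, 1.53 and 2.09 (1.33 ± 0.52, limma adjusted *P* = 0.32) and was not called, nor was *Lgals3bp* (−1.17, limma adjusted *P* = 0.074). Without the third DMSO library 2 genes were called.

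**Figure D5:**
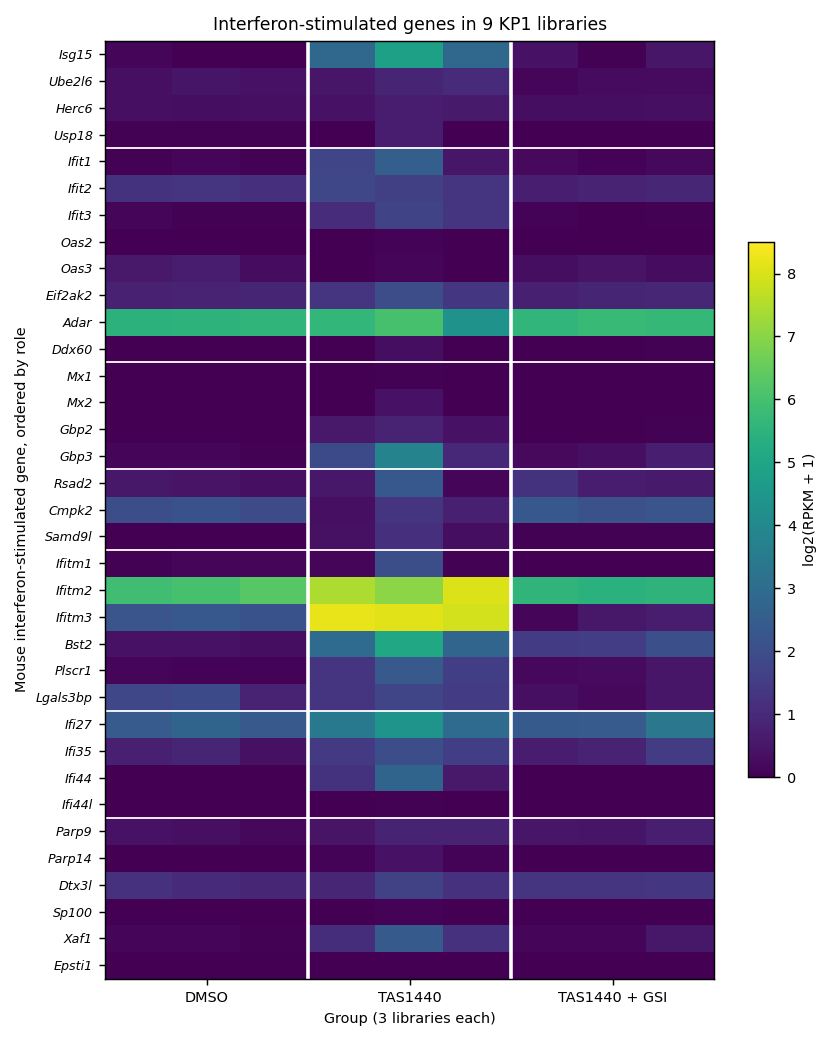
Heat map of log2(RPKM + 1) for the 35 mouse ISGs (rows, ordered by role) in the 9 KP1 libraries (columns, DMSO, TAS1440 and TAS1440 with GSI). *Ifitm3* is at 7.92 to 8.21 with TAS1440 and at 0.14 to 0.64 with GSI added.

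The pathway upstream of these genes was read from 38 listed ligands, receptors, kinases, transcription factors, feedback regulators and sensors. *IFNB1*, the gene of interferon-β, was at 0 in most libraries and reached at most 0.61 in H82, 0.74 in H524, 1.36 in H69 and 1.06 in COR-L88. The receptor genes *IFNAR1* and *IFNAR2* were not called for N1ICD in H82, H524 or H69, and *IFNAR2* rose by 1.04 with TAS1440 in COR-L88. Of the tested pathway genes, N1ICD raised 12 and lowered 1 of 27 in H82, raised 7 of 26 in H524 and raised 9 of 27 in H69, REST in H524 gave 0 calls by limma (5 of 26 at an unadjusted *P* below 0.05), and TAS1440 raised 10 of 26 in COR-L88. Of all tested genes 14.7%, 11.4%, 21.4% and 15.3% were called higher for N1ICD in H82, H524 and H69 and for TAS1440 in COR-L88, respectively. In KP1 TAS1440 raised 3 and lowered 1 of 17 (9.09% and 9.7% of all genes).

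Differences between lines were tested only for the N1ICD response, in the fit of the 60 human libraries. For *IRF1* and *IRF9* it was smaller in H69 than in H82 (−2.11 and −2.23, limma adjusted *P* = 2.9e-09 and 1.7e-06). The *IRF9* response was larger in H82 than in H524 (2.60, limma adjusted *P* = 3e-07), and that of *IRF1* was not called there (−0.80). For *STAT2*, H69 against H82 (−0.71) and H82 against H524 (−0.13) were not called. *IRF1* rose by 3.20 in H524, 2.40 in H82 and 1.52 in COR-L88, and in H69 its difference was 0.29. *IRF9* rose by 3.48 in H82, from 0.54, 1.27 and 1.36 to 4.43, 4.69 and 4.50, by 1.25 in H69 and by 1.01 in COR-L88. *STAT2* rose by 1.22 ± 0.30 in H82, from 7.11, 6.76 and 6.83 to 8.14, 7.82 and 8.42 (limma adjusted *P* = 0.0022). It rose by 1.35 ± 0.18 in H524 (limma adjusted *P* = 5.2e-05) and by 1.25 ± 0.22 in COR-L88 (limma adjusted *P* = 0.00031), and its differences of 0.51 in H69 and 0.19 in KP1 were not called. *IRF7* differed by 0.21 in H82 and −0.05 in H69, was not called in either, and was not tested in H524, COR-L88 or KP1. *STING1*, the sensor adaptor, rose by 1.10 in H82, 2.55 in H69 and 1.92 in COR-L88. In H524 it stood at 0.45, 3.25 and 1.43 without dox and at 2.16, 2.67 and 2.60 with dox (0.77, limma adjusted *P* = 0.24), and mouse *Sting1* differed by −0.16 in KP1 (limma adjusted *P* = 0.59). Neither was called. In H82 the *IRF9* response was smaller in both edited lines, with an interaction of −1.73 for the line labelled *REST* KO and −1.96 for that labelled *STING* KO, and *IRF1* had an interaction of −1.14 in the latter.

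Uninduced vector lines also differed from parental cells in some ISGs. In H82 no-dox N1ICD cells *USP18* (4.94 ± 0.38) and *HERC5* (1.66 ± 0.34) were higher than in parental cells and none was lower (3.75% and 2.66% of all genes). In H524, 1 ISG was higher and 6 lower in no-dox N1ICD cells than in parental cells (4.94% and 7.16%), with *DDX60* at 2.88, 3.22 and 2.80 in parental and 0.23, 0.57 and 0.40 in vector cells (−2.56, limma adjusted *P* = 7.2e-06). In H69, 5 were lower and none higher (2.25% and 3.02%), namely *ISG15* (−1.55), at 2.14, 2.29 and 2.23 in parental cells, *OAS3* (−1.73), *SAMD9* (−1.35), *DDX60* (−1.27) and *IFI6* (−1.88, a call lost in 8 of 11 alternatives). The dox comparisons above use these no-dox libraries as their controls. The H524 *REST* vector line differed from parental cells in no ISG by limma (7 at an unadjusted *P* below 0.05; 0.264% of all genes called).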

How the data were processed

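The authors made stranded mRNA libraries, sequenced them paired-end on an Illumina NovaSeq instrument, and deposited 2 tables of log2(RPKM + 1) values, 1 human and 1 for KP1, after TMM normalization in edgeR. Per the labels, cutadapt, STAR and RSEM were used on hg19 or mm10 (versions not given in the sources used here). The study tested counts with limma voom. The tables hold no counts, so here limma 3.58.1 (R 4.3.3, trend option) was fitted to the deposited log2 values, with 1 mean per group and all libraries of a line in 1 fit, for genes at 1 or more in at least 3 libraries. Differences between lines used 1 fit of the 60 human libraries. For interactions and for comparisons of 2 induced or treated groups, members that passed the filter only with such libraries are not counted apart. Those counts also follow in part from the filter. Benjamini-Hochberg adjustment covered every gene tested, and a call needed an adjusted *P* below 0.05 and a difference of at least 1. The fit was first tested on simulated data. Tables and plots used Python 3.11.15, pandas 2.3.3, numpy 2.4.6 and matplotlib 3.10.9.

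The 69 libraries were grouped by their titles, and 31 comparisons were made, 7 of them interactions. Comparisons within a line share control libraries. The members and lists were chosen with earlier results of these data known. Named in every line were *ISG15*, *IFI27*, *IFIT1*, *IFI44L*, *OAS1*, *MX1*, *IFITM3*, *BST2*, *LGALS3BP*, *GBP1* and *ADAR*; in each comparison up to 4 called genes with the largest positive and up to 3 with the largest negative difference; in each interaction up to 3 called genes; counts of 5 or fewer spelled out; and for the pathway *STAT2*, *IRF9*, *IRF1*, *IRF7*, *IFNB1*, *IFNAR1*, *IFNAR2* and *STING1*. The largest difference favors human genes whose values are large. Genes named outside this rule (*HERC5*, *USP18*, *OASL*, *MX2*, *EPSTI1*, *PARP9*, *DTX3L*, and single values of *XAF1*, *IFI6*, *IFITM1*, *IFITM2*, *CMPK2*, *GBP2*, *DDX60*, *SAMD9L* and *OAS3*) and the genes plotted by library were chosen after their values were seen. The alternatives were libraries centred on their median, quantile normalization, no filter, 0.1 as pseudocount, a fit of only the groups compared, and leaving out each library. Gene positions are GRCh37, and promoter sequences are RefSeq on GRCh38.p14. *IFNA1*, *IFNA2* and *IFNK* were not analysed here, and 1 gene of the pathway list and 1 of the marker list are not reported here.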

Additional observations from a re-analysis of the deposited data

Results flagged for a closer look

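The genes below passed the limma test of a difference between 2 responses, given ± SE with the adjusted *P* and both responses on the log2 scale. In H82, the response to N1ICD was larger in cells labelled *REST* KO than in unedited cells for *IFITM2* (difference 3.19 ± 0.61, limma adjusted *P* = 0.0012, from responses of 9.22 and 6.03). The same held for *LGALS3BP* (2.89 ± 0.97, limma adjusted *P* = 0.049, from 8.31 and 5.43) and *HERC5* (2.55 ± 0.49, limma adjusted *P* = 0.0012, from 3.60 and 1.05). The response was smaller in cells labelled *STING* KO for *IFITM2* (−2.23 ± 0.61, limma adjusted *P* = 0.027, from 3.80 and 6.03), *GBP1* (−2.05 ± 0.39, limma adjusted *P* = 0.0026, from 2.96 and 5.01) and *SAMD9L* (−1.53 ± 0.34, limma adjusted *P* = 0.0076, from 0.18 and 1.71). The *LGALS3BP* call was lost in 12 of 17 alternatives and that of *IFITM2* in the line labelled *STING* KO in 8 of 17.

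In H524 the N1ICD response exceeded the REST response for *XAF1* (9.41 ± 1.15, limma adjusted *P* = 5.5e-05, from 10.50 and 1.08), *IFITM2* (8.41 ± 0.53, limma adjusted *P* = 8.8e-08, from 8.88 and 0.47) and *IFITM1* (7.61 ± 0.22, limma adjusted *P* = 3.3e-11, from 7.77 and 0.16). In COR-L88 the TAS1440 response was smaller in cells labelled *STING* KO for *XAF1* (−5.21 ± 0.19, limma adjusted *P* = 4.6e-09), which was listed at 0 in every library labelled *STING* KO. It was also smaller for *GBP3* (−2.06 ± 0.45, limma adjusted *P* = 0.015, from 3.01 and 5.07) and *OAS3* (−1.98 ± 0.25, limma adjusted *P* = 0.0012, from 0.61 and 2.59).

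Between lines, the N1ICD response was larger in H69 than in H82 for *BST2* (7.45 ± 1.63, limma adjusted *P* = 0.00012, from 8.99 and 1.55), *IFI6* (5.77 ± 0.52, limma adjusted *P* = 4.7e-13, from 7.19 and 1.42) and *XAF1* (5.71 ± 1.23, limma adjusted *P* = 9.3e-05, from 6.22 and 0.51). It was larger in H69 than in H524 for *IFI6* (7.14 ± 0.52, limma adjusted *P* = 7.9e-16, from 7.19 and 0.05) and *TRIM22* (3.78 ± 0.25, limma adjusted *P* = 2.1e-17, from 5.23 and 1.46) and smaller for *XAF1* (−4.27 ± 1.23, limma adjusted *P* = 0.003, from 6.22 and 10.50). The H82 response was smaller than that of H524 for *XAF1* (−9.99 ± 1.23, limma adjusted *P* = 9e-09, from 0.51 and 10.50) and *BST2* (−4.08 ± 1.63, limma adjusted *P* = 0.0498, from 1.55 and 5.62), and larger for *CMPK2* (5.02 ± 0.66, limma adjusted *P* = 4.9e-08, from 4.24 and −0.78).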

How the results depend on the processing

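None of the 399 called ISG values changed sign under any alternative. Values of ISGs that were not called and values of pathway genes were not followed under the alternatives. With a pseudocount of 0.1 the number of called ISGs was 5 (2 as reported) for H82 no dox against parental, 3 (6) for the H82 interaction with *STING* KO, 12 (7) for H524 N1ICD no dox against parental, 1 (0) for H524 *REST* no dox against parental, 9 (5) for H69 no dox against parental, 11 (6) for COR-L88 TAS1440 with GSI against DMSO, 1 (0) for COR-L88 DMSO with *STING* KO and 2 (8) for the COR-L88 interaction. With only the groups compared it was 3 (5) for H82 no dox with *REST* KO, 2 (7) for H524 N1ICD no dox against parental and 2 (1) for KP1 TAS1440 with GSI against DMSO. Quantile normalization gave 0 (4) for H524 REST and 2 (1) for KP1 TAS1440 with GSI against DMSO, and median centring 2 for H524 REST. Leaving out 1 library gave 2 to 5 for H82 dox *REST* KO against unedited (4 as reported), 3 to 9 for the H82 *STING* KO interaction, 5 to 10 for H82 dox *STING* KO against unedited, 4 to 8 for H524 N1ICD no dox against parental (4 without the third no-dox library), 0 to 3 for H524 REST, 0 to 1 for COR-L88 DMSO with *STING* KO (1 without its second library), 5 to 15 for the COR-L88 interaction and 1 to 2 for KP1 TAS1440 with GSI against DMSO. The cause of these moves was not tested.

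Of 399 called gene values, 10 lost the call with no filter, 30 with the other pseudocount, 19 and 15 under the scalings, 30 with only the groups compared, and 233 of 3036 on leaving out a library. Scaling moved the median of all genes from 0.01 to −0.13 or −0.14 for TAS1440 in COR-L88 and from −0.02 to −0.13 for N1ICD in H524, so small negative differences there depend on it. No paired analysis was possible because the titles number the libraries consecutively and the groups compared share no number. Without counts, limits from depth could not be given, and levels of *BST2* and *XAF1* near 2 are at their smallest step.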

Other observations

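*IFIH1*, which encodes the RNA sensor MDA5 and belongs to the upstream list, was read more closely after its values were seen. In H82 it stood at 0.00, 0.00 and 1.33 without dox and at 7.45, 7.87 and 7.45 with N1ICD (7.15 ± 0.53, limma adjusted *P* = 4.7e-09), and at 8.85, 8.48 and 8.62 in dox cells labelled *REST* KO. In dox cells labelled *STING* KO it stood at 4.89, 6.00 and 5.96, below every unedited dox library. In H524 it read 5.15, 1.32 and 2.54 without and 6.68, 6.82 and 7.23 with N1ICD (3.91 ± 0.76, limma adjusted *P* = 0.0013). It was listed at 0 in the 3 *REST* dox libraries and had a mean of 1.46 in the *REST* no-dox group. Those groups overlapped, and the difference of −1.46 was not called (limma adjusted *P* = 0.35). COR-L88 DMSO libraries already stood at 7.71, 7.66 and 7.36, and TAS1440 raised *IFIH1* there by 1.17 ± 0.19 (limma adjusted *P* = 0.00018). In H69 it went from 2.22, 3.57 and 3.62 without dox to 8.98, 8.95 and 8.97 with N1ICD. That difference was 5.83 ± 0.32 (limma adjusted *P* = 3.3e-07), and parental H69 libraries stood at 5.37 to 5.46.

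*SP100*, the founding protein of PML nuclear bodies, also chosen after its values were seen, was at 0.06 or below in the H82 no-dox N1ICD libraries and at 2.21, 2.73 and 2.19 with dox (2.35 ± 0.17, limma adjusted *P* = 2.5e-09). In H69 it was listed at 0 without dox and stood at 2.89, 2.94 and 2.99 with it. *EIF2AK2*, the double-stranded RNA kinase PKR, differed by 0.82 in H82, 0.13 in H524 and 0.47 in COR-L88 without a call and rose by 1.80 ± 0.06 in H69, from 3.42, 3.27 and 3.30 to 5.06, 5.14 and 5.19.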
